A study of Mus musculus with 20 samples.

Results

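The genes described here carry the names of nuclear-encoded subunits of the mitochondrial respiratory chain and ATP synthase. They were taken from the gene names on the array: names beginning with Nduf followed by a, b, c, s or v and a digit, the 4 Sdh genes, and names beginning with Uqcr, with Cox4 to Cox8 followed by a, b or c, or with Atp5. The rule found 114 probes of 80 genes, and the brightest probe stood for each gene. Of these, 78 were tested among 21608 features, and 77 were well above background on all 20 arrays. Cox7b2 and Cox8c, which encode testis isoforms of complex IV subunits, were too dim to test: Cox7b2 was well above background on 2 arrays and Cox8c on 0. The name patterns do not take Cox4i1, Cox4i2 or Cyc1, which are given below with the other genes of the complexes.

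Intestinal epithelial cells of untreated 28-day-old mice were hybridised to Agilent arrays with a single dye, and each array held the RNA of 1 animal. There were 5 genotypes with 4 animals each, all with the strain label C57BBL6: wild type, animals labelled Trif LPS/LPS, which carry a mutated Trif on both chromosomes and are called Trif mutants below, and knockouts of Tlr3, Tlr4 and MyD88. TLR3 senses double-stranded RNA and TLR4 senses lipopolysaccharide. TRIF is the adaptor protein of TLR3, MyD88 that of most other Toll-like receptors, and TLR4 uses both. The comparisons ask how each gene bears on expression in the epithelium without infection.

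Complex I takes electrons from NADH and complex II from succinate, complex III passes them from ubiquinol to cytochrome c, and complex IV hands them to oxygen. The proton gradient built by complexes I, III and IV drives ATP synthase, called complex V here. Most subunits are encoded in the nucleus, made in the cytosol and imported, while a small core is encoded in mitochondrial DNA and made by the mitochondrial ribosome. In the intestine, absorptive villus cells rely heavily on this respiration, and several subunits exist as isoforms typical of heart and muscle, of liver or of testis.

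Levels are log2 signals relative to the array's 75th percentile, and a difference is that between the means of 4 animals, with its standard error (SE). A gene was called, and is said to have risen or fallen, where limma's adjusted p over all features was below 0.05. The share of probes well above background was 64.7% to 73.3% on 16 arrays and 70.9% to 85.5% on those of the 4 MyD88 knockouts. The scan day, scanner and slides of the latter differed from all others, so for this genotype they cannot be told apart from the deletion. The other genotypes shared slides, each at a fixed position, which cannot be told apart from genotype either. All 8 epithelial markers were well above background on every array, and 11 of 13 immune cell markers were too. The immune markers' summed signal was 41.7 to 79.2 times the 75th percentile in wild type and 97.3 to 207 times in MyD88 knockouts. It was 20.3 to 42.1 times in Trif mutants, 15.2 to 25.7 in Tlr3 knockouts, below all wild type animals, and 23.9 to 61.4 in Tlr4 knockouts. Sex, which the labels do not give, was uneven: Y-linked signal exceeded that of Xist in 4 of 4 MyD88 knockouts, 3 Trif mutants and 1 Tlr3 knockout, and in 0 wild type or Tlr4 animals. Between MyD88 knockouts and wild type or Tlr4 knockouts, sex by this sign can therefore not be told apart from genotype. Tlr3 was lower by 7.02 in Tlr3 knockouts (difference -7.02 ± 0.14, adjusted p = 1e-15) and Myd88 fell by 1.27 in MyD88 knockouts (SE 0.11, adjusted p = 1.5e-06). Ticam1, the gene of TRIF, differed by 0.67 ± 0.13 in Trif mutants (adjusted p = 0.00055), whose allele is a mutation and not a deletion. No Tlr4 feature was tested, so the Tlr4 knockout was not checked.

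In Trif mutants 53 of 78 subunit genes rose against wild type and 1 fell, and 72 of the 78 differences were above 0. Over all features, 28.6% were called higher and 15.8% lower. The median difference of the subunit genes was 0.33, against 0.19 over all features, and 58 of 78 lay above that median. The median of the subunit genes was 0.32, 0.28, 0.30 and 0.41 on the 4 Trif mutant arrays and -0.07, 0.01, 0.09 and -0.02 on the wild type arrays, relative to the wild type mean. All 4 mutant arrays thus lay above all 4 wild type arrays, and within the 4 slides shared with wild type the median difference was 0.20 to 0.43. The median of all features was 0.09, 0.22, 0.26 and 0.17 on the Trif mutant arrays, also above wild type. On the wild type arrays it was -0.07, 0.00, 0.06 and -0.01. Within slides the median difference of all features was 0.12 to 0.23. The subunit genes had a median SE of 0.10, against 0.19 for all features, so that a difference of a given size was called more readily among them.

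In Tlr3 knockouts 40 of 78 rose and 0 fell, where 24.5% of all features were called higher and 13.8% lower. The array medians were 0.27, 0.30, 0.24 and 0.17, again all above wild type. Those of all features were 0.14, 0.28, 0.24 and 0.15, also all above wild type. The median difference of the subunit genes, 0.25, was close to the 0.22 of all features. Of their 78 differences, 44 lay above that median and 74 above 0. Within slides their median difference was 0.15 to 0.33, and that of all features 0.10 to 0.28.

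In Tlr4 knockouts 5 of 78 rose and 0 fell. That is 6.41% of the subunit genes, where 9.31% of all features were called higher and 3.11% lower. The array medians of 0.11, 0.08, 0.01 and 0.15 overlapped those of wild type, and the median difference was 0.08 against 0.01 over all features. Of the 78 differences 61 were above 0, and 58 lay above the median of all features, as many as in Trif mutants. Same-numbered wild type and Tlr4 arrays deviated together, and with the replicate number as a block 2 of the 5 calls, Cox7a2 and Uqcrq, remained. Leaving out wild type animal 1 or 4 or Tlr4 animal 1 or 4 left 1 call, and leaving out wild type animal 2 or Tlr4 animal 2 left 2.

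In MyD88 knockouts 22 rose and 3 fell. Here 37.1% of all features were called higher and 12.3% lower, and 28.2% of the subunit genes were called higher. Their median difference was 0.10, below the 0.30 of all features. Of their 78 differences, 16 lay above that median and 61 above 0. The array medians were 0.07, 0.15, -0.01 and 0.26. Without MyD88 animal 4, 14 genes rose.

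**Figure D1:**
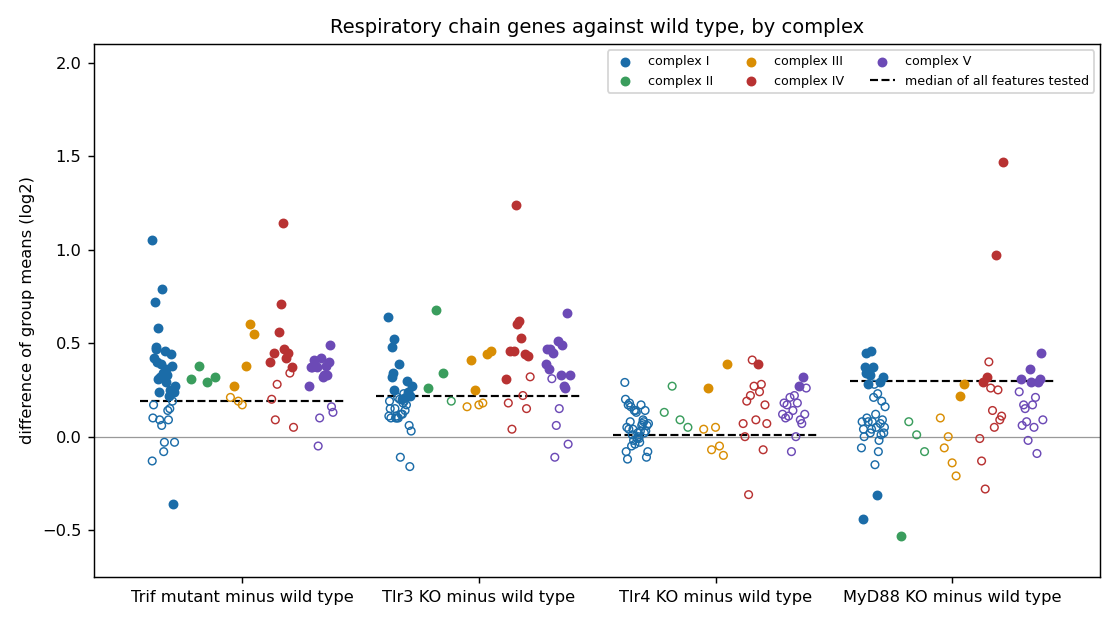
Differences from wild type (log2) of the 78 subunit genes tested, by complex, in the 4 mutant genotypes. Each point is a gene, filled where its adjusted p was below 0.05, and dashed lines mark the median of all features; most points lie above 0 in Trif mutants and Tlr3 knockouts, and below the dashed line in MyD88 knockouts.

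How many of these genes were called depended on how arrays were put on a common scale. In Trif mutants 53 rose and 1 fell after scaling to the 75th percentile, 52 and 1 with the median feature used to centre each array, 16 and 1 after median scaling, 8 and 4 after quantile normalization, and 5 and 1 after normexp background correction. Against the median feature the subunit genes differed by 0.14 under the first 3 of these, by -0.04 under quantile normalization and by -0.41 under normexp. In Tlr3 knockouts the calls were 40 higher and 0 lower, then 28 and 0, 5 and 0, 11 and 3, and 5 and 0 in the same order. In MyD88 knockouts the direction itself turned: 22 higher and 3 lower became 2 and 20 with centring and 2 and 37 after median scaling, but 15 and 10 after quantile normalization and 5 and 1 after normexp. Of the 22 genes called higher in MyD88 knockouts, 17 had a difference below 0 under at least 1 of the other 4 scalings, as had 10 of 53 in Trif mutants, 11 of 40 in Tlr3 knockouts and 0 of 5 in Tlr4 knockouts. The rises given below for MyD88 knockouts therefore hold for the 75th percentile, and those of Cox7a2l, Ndufa4, Ndufb11, Atp5s and Cox8b are the 5 that stayed above 0, with Cox8b given below as a description only. A rise or fall of the whole set against wild type can therefore not be told apart from the scale. Weight is given below to single genes called under all 5 scalings, which do not speak for the set, and to differences between gene groups on the same array.

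**Figure D2:**
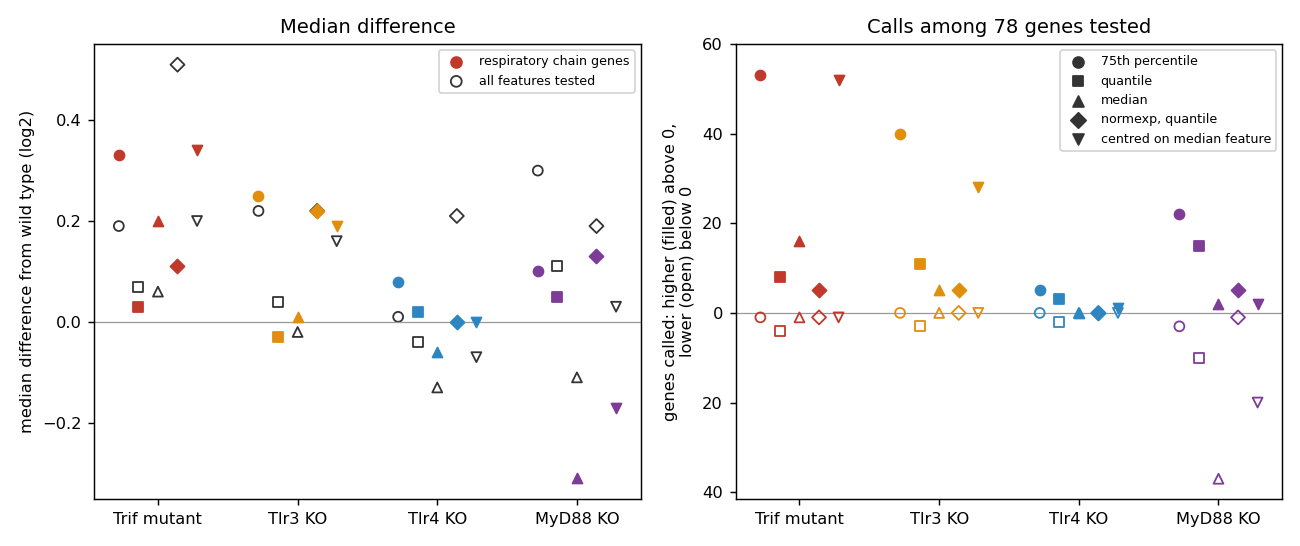
Left, the median difference from wild type (log2) of the subunit genes (coloured by genotype) and of all features tested (open); right, how many of the 78 genes were called higher (filled) or lower (open), under 5 scalings shown by marker shape. In Trif mutants the calls range from 53 higher to 5 higher, and in MyD88 knockouts from 1 lower to 37 lower. The marker labelled normexp, quantile stands for normexp background correction with scaling to the 75th percentile, without quantile normalization.

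Called higher in Trif mutants under all 5 scalings were 4 subunit genes, Cox7a1, Ndufa1, Ndufb3 and Cox6c, where 11.0% of all features were called so, and Ndufs8 was called lower, where 8.52% were. In Tlr3 knockouts these were 5 genes, Cox6b2, Sdhb, Atp5o, Ndufa1 and Cox6c, with 0 lower, against 5.17% and 6.78% of all features. In Tlr4 knockouts none of the 78 met this in either direction (2.13% and 0.616% of all features). In MyD88 knockouts Cox7a2l was higher and Sdha lower (3.04% and 5.43% of all features). Ndufa1 and Cox6c were among these genes in Trif mutants and in Tlr3 knockouts, which were compared with the same wild type animals. As a share of the 78 genes tested, such calls were rarer than among all features in Trif, Tlr4 and MyD88 mutants, in both directions. In Tlr3 knockouts the share called higher was slightly above that of all features, and the share called lower was below it.

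**Figure D3:**
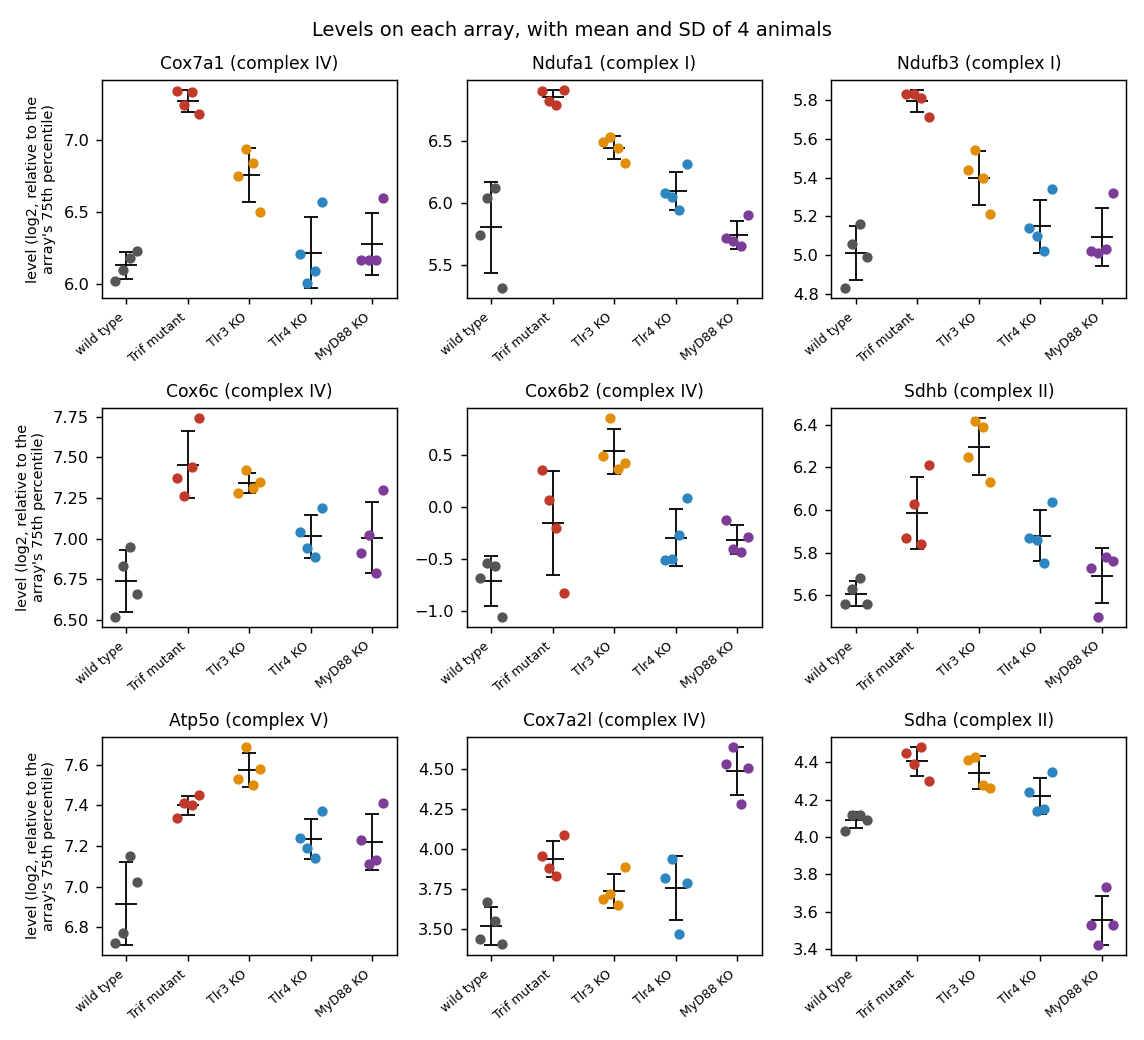
Level of 9 subunit genes on each array (log2, relative to the array's 75th percentile), with mean and SD of the 4 animals of a genotype. Cox7a1, Ndufa1 and Ndufb3 are highest in all 4 Trif mutants, Cox6b2 in Tlr3 knockouts, Cox7a2l in MyD88 knockouts, and Sdha is lowest in the 4 MyD88 knockouts.

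The promoters of these genes were read to see whether the genes that moved carry the motifs usual for this gene set. RefSeq (GRCm38.p6) gave a promoter for 68 of the 80 genes, and the 250 bases before the transcription start were searched on both strands. The palindromic motif of NRF1, a transcription factor known for driving respiratory chain genes, occurred in 13 of 68 (19.1%), against 4.23% of 27025 genes with a promoter. The ETS motif CCGGAAG, bound by the GABP factor among others, occurred in 12 (17.6%, against 7.83%), the YY1 motif AAGATGGCG in 2 (2.94%, against 0.71%) and the motif of the estrogen-related receptors, TCAAGGTCA, in 1 (1.47%, against 0.422%). Of the 45 genes that rose in Trif mutants and had a promoter, 11 held the NRF1 motif, and of the other 23 it was 2. A match describes the letters and is no evidence of binding.

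The promoters of 6 genes are shown, 5′ to 3′, with NRF1 and ETS matches in capitals. Sdha and Ndufb4 held more NRF1 matches than the other genes, Cox6a1 held NRF1 and ETS matches, and Ndufa11 was among the genes with an NRF1 match that were not called in Trif mutants; Cox7a1 and Ndufa1, with the largest rises there, held none of the 4 motifs in this window.
Sdha, chr13:74350241-74350490, minus strand: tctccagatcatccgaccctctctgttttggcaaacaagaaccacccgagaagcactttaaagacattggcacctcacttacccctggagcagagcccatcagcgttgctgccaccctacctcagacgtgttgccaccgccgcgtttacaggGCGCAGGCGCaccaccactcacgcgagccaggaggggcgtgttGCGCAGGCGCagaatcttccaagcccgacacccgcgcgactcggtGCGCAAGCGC
Ndufb4, chr16:37654369-37654618, minus strand: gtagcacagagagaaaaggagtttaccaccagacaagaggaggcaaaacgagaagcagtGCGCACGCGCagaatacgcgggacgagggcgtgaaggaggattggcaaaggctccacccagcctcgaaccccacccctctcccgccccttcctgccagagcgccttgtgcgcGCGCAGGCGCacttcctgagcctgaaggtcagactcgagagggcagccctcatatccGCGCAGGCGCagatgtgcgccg
Cox6a1, chr5:115348959-115349208, minus strand: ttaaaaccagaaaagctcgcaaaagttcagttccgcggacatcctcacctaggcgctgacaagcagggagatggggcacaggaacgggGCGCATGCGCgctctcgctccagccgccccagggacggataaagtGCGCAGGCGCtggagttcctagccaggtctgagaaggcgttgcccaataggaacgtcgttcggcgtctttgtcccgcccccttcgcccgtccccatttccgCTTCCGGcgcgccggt
Ndufa11, chr17:56717512-56717761, plus strand: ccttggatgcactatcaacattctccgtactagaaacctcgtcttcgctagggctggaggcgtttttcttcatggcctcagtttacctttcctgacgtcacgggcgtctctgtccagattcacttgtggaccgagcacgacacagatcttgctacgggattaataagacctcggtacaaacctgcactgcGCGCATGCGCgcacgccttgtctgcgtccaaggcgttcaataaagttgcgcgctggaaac
Cox7a1, chr7:30183921-30184170, plus strand: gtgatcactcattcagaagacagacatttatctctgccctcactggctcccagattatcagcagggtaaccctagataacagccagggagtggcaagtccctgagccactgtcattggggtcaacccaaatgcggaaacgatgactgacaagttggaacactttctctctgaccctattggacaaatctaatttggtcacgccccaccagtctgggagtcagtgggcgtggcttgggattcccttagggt
Ndufa1, chrX:37191239-37191488, minus strand: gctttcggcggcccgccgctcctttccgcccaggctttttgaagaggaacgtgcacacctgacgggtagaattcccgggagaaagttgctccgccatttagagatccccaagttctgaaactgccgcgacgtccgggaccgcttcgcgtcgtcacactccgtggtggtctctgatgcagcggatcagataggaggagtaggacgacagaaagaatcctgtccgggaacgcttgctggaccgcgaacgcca

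Among the 36 complex I genes tested, 23 rose and 1 fell in Trif mutants (median difference 0.28), 12 rose in Tlr3 knockouts (0.19), 0 were called in Tlr4 knockouts (0.05), and 10 rose and 2 fell in MyD88 knockouts (0.09). For this and the complexes below, 28.6%, 24.5%, 9.31% and 37.1% of all features were called higher in that order. Called lower were 15.8%, 13.8%, 3.11% and 12.3%, and the medians were 0.19, 0.22, 0.01 and 0.30. In Tlr3 knockouts 13 of 36 complex I genes lay above the median of all features. In MyD88 knockouts 27.8%, 0%, 28.6%, 28.6% and 35.3% of complexes I to V were called higher, each below the share of all features. Ndufa1, an X-linked accessory subunit needed to assemble the membrane arm, stood at 5.74, 6.04, 6.12 and 5.31 in wild type, at 6.90, 6.82, 6.79 and 6.91 in Trif mutants and at 6.49, 6.53, 6.44 and 6.32 in Tlr3 knockouts. All animals of both mutants lay above all wild type animals, and Trif mutants above Tlr3 knockouts. The difference from wild type was 1.05 ± 0.14 in Trif mutants (adjusted p = 2.1e-05) and 0.64 ± 0.14 in Tlr3 knockouts (adjusted p = 0.0019). With Xist as a covariate these were 1.09 and 0.65, and another Ndufa1 probe gave 1.07 and 0.66. Levels in Tlr4 (6.08, 6.05, 5.94 and 6.31) and MyD88 knockouts (5.72, 5.69, 5.65 and 5.90) lay within or close to the wild type range.

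Ndufb3, an accessory subunit of the membrane arm, was measured at 4.83, 5.06, 5.16 and 4.99 in wild type and at 5.83, 5.83, 5.81 and 5.71 in Trif mutants. These groups did not overlap, and the difference was 0.79 ± 0.10 (adjusted p = 1.9e-05). Tlr3 knockouts, at 5.44, 5.54, 5.40 and 5.21, also lay above wild type, by 0.39 ± 0.10 (adjusted p = 0.0071). Ndufs8, which carries iron-sulfur clusters of the arm that receives the electrons, went the other way in Trif mutants: 2.47, 2.42, 2.42 and 3.00 against 3.1, 2.84, 2.92 and 2.90, a fall by 0.36 (difference -0.36 ± 0.12, adjusted p = 0.018). Trif animal 4 lay within the wild type range. The call was lost without wild type animal 1 (-0.31, adjusted p = 0.064) or Trif animal 1 (-0.32, 0.052), 2 (-0.31, 0.064) or 3 (-0.31, 0.061). In MyD88 knockouts Ndufs8 rose by 0.32 ± 0.12 (adjusted p = 0.032).

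A further 4 complex I genes were called in Trif mutants, Tlr3 and MyD88 knockouts alike. Ndufa2, an accessory subunit, stood at 4.78, 4.78, 4.89 and 4.72 in wild type, with all animals of these 3 mutants above, and rose by 0.72 ± 0.11, 0.48 ± 0.11 and 0.37 ± 0.11 in that order. Ndufa3 rose by 0.47, 0.32 and 0.34 (SE 0.08 for each), and its wild type levels of 3.73 to 3.87 lay below the 4.22 to 4.30 of Trif mutants, the 4.05 to 4.18 of Tlr3 knockouts and the 4.05 to 4.21 of MyD88 knockouts. Ndufa4, named for complex I but since assigned to complex IV, rose by 0.48, 0.34 and 0.45 (SE 0.09 for each). Ndufa6 rose by 0.58, 0.52 and 0.28 (SE 0.11 for each). These comparisons share their wild type animals. All 4 genes were among those whose calls did not hold under every scaling.

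In MyD88 knockouts 2 complex I genes fell. Ndufa11, of the membrane arm, differed by -0.44 ± 0.10 (adjusted p = 0.0017), and another of its probes gave -0.47. Ndufc1 differed by -0.31 ± 0.12 (adjusted p = 0.033), but its other probes gave -0.20 and 0.69, and the call was lost without wild type animal 2 (-0.29, adjusted p = 0.074), 3 (-0.30, 0.065) or 4 (-0.29, 0.074) or MyD88 animal 3 (-0.23, 0.11). The largest rises there were Ndufb11, an X-linked membrane subunit, at 0.46 ± 0.12 (adjusted p = 0.0048) and Ndufa4, given above. Sex and genotype cannot be told apart in this comparison.

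Complex II has 4 subunits, all nuclear. All 4 genes rose in Trif mutants (0.29 to 0.38) and 3 in Tlr3 knockouts, none was called in Tlr4 knockouts, and 1 fell in MyD88 knockouts. Sdhb, the iron-sulfur subunit, stood at 5.56, 5.63, 5.68 and 5.56 in wild type and at 6.25, 6.42, 6.39 and 6.13 in Tlr3 knockouts. The groups were apart by 0.68 ± 0.10 (adjusted p = 0.0001). In Trif mutants, at 5.87, 6.03, 5.84 and 6.21, the difference was 0.38 ± 0.10 (adjusted p = 0.006). Sdhc and Sdhd, the membrane anchors, rose by 0.29 ± 0.10 and 0.32 ± 0.11 in Trif mutants, and Sdhc by 0.34 ± 0.10 in Tlr3 knockouts. For Sdhd in Trif mutants the difference was 0.00 after quantile normalization, and the call was lost without wild type animal 1 (0.26, adjusted p = 0.094) or 2 (0.30, 0.059) or Trif animal 4 (0.24, 0.084).

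Sdha, the flavoprotein that oxidises succinate, differed in direction between genotypes. It was measured at 4.03, 4.12, 4.12 and 4.09 in wild type and at 3.53, 3.42, 3.73 and 3.53 in MyD88 knockouts. All 4 MyD88 animals lay below all animals of the other genotypes, and the difference from wild type was -0.53 ± 0.08 (adjusted p = 0.00013). In Trif mutants (4.45, 4.39, 4.48 and 4.30) and Tlr3 knockouts (4.41, 4.43, 4.28 and 4.26) Sdha rose by 0.31 ± 0.08 and 0.26 ± 0.08. With the mean of all Sdha probes the MyD88 difference was -0.06 (adjusted p = 0.56). The 2 dimmer probes gave -0.33 and 0.68 in MyD88 knockouts, -0.01 and 0.84 in Trif mutants and 0.21 and 1.42 in Tlr3 knockouts, so the probes disagreed in direction.

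Of 7 complex III genes tested, 4 rose in Trif mutants, 4 in Tlr3 knockouts, 2 in Tlr4 knockouts and 2 in MyD88 knockouts, with 0 falls. Uqcrh, the hinge protein next to cytochrome c1, stood at 7.44, 7.47, 7.60 and 7.41 in wild type, at 8.10, 8.08, 8.13 and 8.02 in Trif mutants and at 7.91, 7.97, 7.88 and 7.93 in Tlr3 knockouts. The 3 groups did not overlap. The differences from wild type were 0.60 ± 0.08 (adjusted p = 2.6e-05) and 0.44 ± 0.08 (adjusted p = 0.00062). Tlr4 knockouts, at 7.42, 7.37, 7.32 and 7.43, differed by -0.10 ± 0.08 (adjusted p = 0.54). In MyD88 knockouts the difference of 0.22 ± 0.08 (adjusted p = 0.033) was -0.19 with median scaling, and the call was lost without wild type animal 1, 2 or 4 (0.21, 0.22 and 0.20) or MyD88 animal 2 or 4 (0.22 and 0.15).

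Uqcrq, a small subunit at the ubiquinone-binding side, was called in all 4 mutants. Its levels were 7.01, 7.20, 7.42 and 7.21 in wild type, 7.72, 7.76, 7.79 and 7.77 in Trif mutants, 7.63, 7.77, 7.58 and 7.69 in Tlr3 knockouts, 7.66, 7.58, 7.57 and 7.59 in Tlr4 knockouts and 7.51, 7.51, 7.30 and 7.63 in MyD88 knockouts. MyD88 knockouts overlapped wild type and the other mutants did not. The differences were 0.55, 0.46, 0.39 and 0.28 in that order (SE 0.09 for each, adjusted p = 0.00012, 0.00096, 0.0067 and 0.017). A dimmer Uqcrq probe gave 0.73, 0.79, -0.11 and 0.30, so the rise in Tlr4 knockouts rests on 1 probe. The MyD88 difference was -0.13 with median scaling, and its call was lost without wild type animal 1 (0.21, adjusted p = 0.063) or MyD88 animal 4 (0.23, 0.059). Uqcrb, another small subunit, rose by 0.27, 0.41 and 0.26 in Trif, Tlr3 and Tlr4 mutants (SE 0.08 for each), from wild type levels of 4.40 to 4.56 to 4.63 to 4.82, 4.84 to 4.95 and 4.64 to 4.85. In Tlr4 knockouts that call (adjusted p = 0.049) was lost on leaving out any of the 8 animals, with differences of 0.22 to 0.29.

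Complex IV had 14 genes tested, of which 9 rose in Trif mutants, 9 in Tlr3 knockouts, 1 in Tlr4 knockouts and 4 in MyD88 knockouts, with 0 falls. Cox7a1, the subunit isoform typical of heart and skeletal muscle, had the largest difference of all subunit genes in Trif mutants. It stood at 6.02, 6.10, 6.18 and 6.23 in wild type, at 7.34, 7.24, 7.33 and 7.18 in Trif mutants and at 6.75, 6.94, 6.84 and 6.50 in Tlr3 knockouts. The 3 groups did not overlap, with differences from wild type of 1.14 ± 0.13 (adjusted p = 7.8e-06) and 0.62 ± 0.13 (adjusted p = 0.0015). Over the 5 scalings the Trif difference ranged from 0.87 to 1.15. None of 10 muscle markers was called in Trif mutants, and their summed signal was 21.8 to 44.5 times the 75th percentile there and 24.6 to 39.8 times in wild type. Only 4 of the 10 were well above background on all 20 arrays, so the lack of calls among the dimmer ones says little. In Tlr3 knockouts 2 of the 10 rose, and the summed signal of 44.7 to 64.2 times lay above all wild type animals. The part of muscle RNA in the Cox7a1 differences was not tested. Cox7a2, the isoform of most other tissues, rose by 0.47 ± 0.11 and 0.53 ± 0.11 in Trif and Tlr3 mutants and by 0.39 ± 0.11 in Tlr4 knockouts (adjusted p = 0.02). In Tlr4 knockouts its call was lost without wild type animal 1 (0.35, adjusted p = 0.065) or 4 (0.38, 0.058) or Tlr4 animal 1 (0.38, 0.057) or 4 (0.32, 0.065).

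Cox6c, a membrane subunit, stood at 6.52, 6.83, 6.95 and 6.66 in wild type, at 7.37, 7.26, 7.44 and 7.74 in Trif mutants and at 7.28, 7.42, 7.31 and 7.35 in Tlr3 knockouts. Both mutants lay above wild type without overlap. The differences were 0.71 ± 0.13 (adjusted p = 0.00025) and 0.60 ± 0.13 (adjusted p = 0.0016). Cox6b2, the testis isoform of a subunit facing the intermembrane space, was dimmer and more variable, at -0.69, -0.54, -0.57 and -1.06 in wild type and 0.49, 0.85, 0.36 and 0.42 in Tlr3 knockouts. All Tlr3 animals lay above all other animals, and the difference from wild type was 1.24 ± 0.21 (adjusted p = 0.00028). Trif mutants spread from -0.83 to 0.35 and overlapped wild type (0.56 ± 0.21, adjusted p = 0.038). Its widely expressed partner Cox6b1 rose in Tlr3 knockouts by 0.46 ± 0.12 and differed by 0.28 ± 0.12 in Trif mutants (adjusted p = 0.068).

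Cox7a2l, which joins complex III to complex IV in supercomplexes, stood at 3.44, 3.67, 3.55 and 3.41 in wild type and at 4.53, 4.64, 4.28 and 4.51 in MyD88 knockouts. The 4 MyD88 animals lay above those of every other genotype, and the difference from wild type was 0.97 ± 0.11 (adjusted p = 1.2e-05). Over the 5 scalings it was 0.56 to 1.06. In Trif mutants, at 3.96, 3.88, 3.83 and 4.09, it rose by 0.42 ± 0.11 (adjusted p = 0.0046). Cox8b, an isoform of heart and muscle, was well above background on all 4 MyD88 arrays, on 1 Tlr3 array and on 0 in the other genotypes, so it passed the filter on dim probes through the MyD88 arrays. On the log2 scale, levels were -5.62, -6.16, -6.20 and -5.46 there and -6.88, -6.76, -7.33 and -8.35 in wild type. As a description without a test, this is at least 1.37-fold higher against the lowest signal well above background. With normexp the fitted difference was 0.24 from wild type and -0.30 from Tlr4 knockouts.

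Cox6a1, the widely expressed isoform, rose by 0.45, 0.46 and 0.29 in Trif, Tlr3 and MyD88 mutants (SE 0.10 for each), from 8.02 to 8.55 in wild type to 8.62 to 8.78, 8.66 to 8.84 and 8.47 to 8.69. The muscle isoform Cox6a2 was not called against wild type in any mutant (-0.31 to 0.09, adjusted p = 0.14 at the lowest). Cox8a rose by 0.37 ± 0.08 and 0.43 ± 0.08 in Trif and Tlr3 mutants, and X-linked Cox7b by 0.45 ± 0.12 and 0.44 ± 0.12. The difference between isoforms was not tested.

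Of the 17 complex V genes tested, 13 rose in Trif mutants, 12 in Tlr3 knockouts, 2 in Tlr4 knockouts and 6 in MyD88 knockouts, with 0 falls. Counted here by name alone are Atp5s and Atp5sl, since renamed Dmac2l and Dmac2. Atp5sl is among the 12 and Atp5s among the 6. Atp5o, the stalk subunit that confers oligomycin sensitivity, was called in all 4 mutants. Its levels were 6.72, 6.77, 7.15 and 7.02 in wild type, 7.34, 7.41, 7.40 and 7.45 in Trif mutants, 7.53, 7.69, 7.50 and 7.58 in Tlr3 knockouts, 7.24, 7.19, 7.14 and 7.37 in Tlr4 knockouts and 7.23, 7.11, 7.13 and 7.41 in MyD88 knockouts. Trif and Tlr3 mutants lay above wild type and the others overlapped it. The differences were 0.49, 0.66, 0.32 and 0.31 (SE 0.10 for each, adjusted p = 0.00088, 0.00013, 0.048 and 0.019). The Tlr4 call was lost without any 1 of wild type animals 1, 2 and 4 or Tlr4 animals 1 to 4, with differences of 0.25 to 0.35.

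Atp5b, the catalytic beta subunit, rose by 0.37, 0.47 and 0.31 in Trif, Tlr3 and MyD88 mutants (SE 0.09 for each), from 7.64 to 8.04 in wild type to 8.06 to 8.24, 8.14 to 8.39 and 8.03 to 8.19. Its dimmer probes gave 0.16 and -0.11 in Trif mutants and -0.03 and -0.24 in MyD88 knockouts, so these rises rest on the brightest probe. Atp5j2, a membrane subunit, rose by 0.38 ± 0.09 and 0.49 ± 0.09 in Trif and Tlr3 mutants, and by 0.27 ± 0.09 in Tlr4 knockouts. That Tlr4 call (adjusted p = 0.044) was lost without wild type animal 1, 2 or 4 or Tlr4 animal 1, 2 or 4, with differences of 0.24 to 0.30. Atp5l, a membrane subunit, rose by 0.40, 0.26 and 0.29 in Trif, Tlr3 and MyD88 mutants (SE 0.08 for each), from 5.23 to 5.39 in wild type to 5.69 to 5.76, 5.49 to 5.77 and 5.45 to 5.73.

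Atp5g1, Atp5g2 and Atp5g3 encode the same mature ring subunit c of ATP synthase. Atp5g3 rose by 0.42 ± 0.11, 0.51 ± 0.11 and 0.29 ± 0.11 in Trif, Tlr3 and MyD88 mutants, but the Trif difference was -0.03 after quantile normalization. Atp5g1 was not called in any mutant (-0.11 to -0.02). Atp5g2 rose in MyD88 knockouts by 0.36 ± 0.10 (adjusted p = 0.0078) and was not called in the other mutants (0.06 to 0.14). The MyD88 difference was -0.05 with median scaling, and 0.85 for the other Atp5g2 probe. Against Tlr4 knockouts it missed the threshold (0.22 ± 0.10, adjusted p = 0.079), and the other probe gave 0.55. Atp5s, since renamed Dmac2l and no subunit of the purified enzyme, had the largest complex V rise in MyD88 knockouts (0.45 ± 0.11, adjusted p = 0.0042).

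Mutants were also compared with each other. Trif mutants against Tlr3 knockouts gave 5 genes higher and 2 lower, where 10.2% of all features were called higher and 10.0% lower. Cox7a1 was higher in Trif mutants by 0.51 ± 0.13 (adjusted p = 0.01), Ndufb3 by 0.40 ± 0.10 (adjusted p = 0.01) and Ndufa1 by 0.41 ± 0.14 (adjusted p = 0.044). The others were Ndufa13 (0.32 ± 0.10) and Ndufb7 (0.26 ± 0.08), the latter named after its value was seen. Cox6b2 was higher in Tlr3 knockouts (-0.69 ± 0.21, adjusted p = 0.026), as was Sdhb (-0.30 ± 0.10, adjusted p = 0.042). None of the 7 was called under all 5 scalings. Leaving out 1 animal gave 2 to 4 higher and 0 to 2 lower: the Ndufa1 call was lost without any of the 8 animals (0.37 to 0.44), the Sdhb call without Trif animal 1, 2 or 3 or Tlr3 animal 1, 2 or 3 (-0.32 to -0.26), and the Cox6b2 call without Trif animal 3 or 4 or Tlr3 animal 1 or 2 (-0.70 to -0.46).

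Against Tlr4 knockouts, 29 subunit genes were higher in Trif mutants and 1 was lower, where 23.7% of all features were called higher and 17.5% lower. Cox7a1 (1.05 ± 0.13, adjusted p = 1.4e-05), Ndufa1 (0.76 ± 0.14, adjusted p = 0.00031), Uqcrh (0.70 ± 0.08, adjusted p = 7.8e-06) and Ndufa13, an accessory subunit also known as GRIM-19 (0.54 ± 0.10, adjusted p = 0.00028), were called under all 5 scalings. Ndufb3 was higher by 0.65 ± 0.10, Cox6c by 0.44 ± 0.13, Uqcrfs1, the Rieske iron-sulfur protein, by 0.43 ± 0.13, Atp5l by 0.33 ± 0.08 and Atp5h by 0.32 ± 0.09. Ndufa10, an accessory subunit of complex I, was the only one lower (-0.33 ± 0.10, adjusted p = 0.011). Leaving out Trif animal 4 gave 2 lower.

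MyD88 against Tlr4 knockouts gave 12 higher and 6 lower, where 33.5% of all features were called higher and 14.5% lower. Cox7a2l was higher (0.73 ± 0.11, adjusted p = 0.00015) and Sdha lower (-0.66 ± 0.08, adjusted p = 3.7e-05) under all 5 scalings. Cox8b, counted among the 12, is described above without a test. Ndufs8 was higher by 0.43 ± 0.12, Ndufa8 by 0.34 ± 0.08, Atp5s by 0.33 ± 0.11, Uqcrh by 0.32 ± 0.08 and Atp5l by 0.22 ± 0.08. The other Uqcrh probe gave -0.02, and Atp5l differed by -0.05 with median scaling. Lower beside Sdha were Ndufa11 (-0.37 ± 0.10), Ndufa1 (-0.35 ± 0.14), Ndufc1 (-0.35 ± 0.12), Cox7a2 (-0.34 ± 0.11) and Uqcrb (-0.32 ± 0.08). Without MyD88 animal 2 there were 6 higher and without Tlr4 animal 3 there were 7, and without Tlr4 animal 4 there were 3 lower. The calls of Atp5l (0.19 to 0.23), Ndufa1 (-0.37 to -0.28), Ndufc1 (-0.30 to -0.26), Atp5s (0.27 to 0.29) and Cox7a2 (-0.27) each failed without at least 1 of the 8 animals: Cox7a2 without Tlr4 animal 4, Atp5s without MyD88 animal 2 or Tlr4 animal 3, Ndufc1 without MyD88 animal 3 or Tlr4 animal 4, Atp5l without Tlr4 animals 1, 2 or 3 or MyD88 animals 1, 2 or 4, and Ndufa1 without Tlr4 animals 1, 2 or 4 or MyD88 animals 1, 2 or 3.

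In Trif mutants and Tlr3 knockouts most called genes of the mitochondrial ribosome fell. Of 78 genes of the mitochondrial ribosome, 39 fell and 8 rose in Trif mutants (median difference -0.31), and 44 fell and 3 rose in Tlr3 knockouts (-0.33). In Tlr4 knockouts 2 rose and 1 fell (-0.07), and in MyD88 knockouts 27 rose and 2 fell (0.17). The shares over all features were 28.6% higher and 15.8% lower in Trif mutants, 24.5% and 13.8% in Tlr3 knockouts, and 37.1% and 12.3% in MyD88 knockouts, where the median of all features was 0.30. Mrps27 had the largest fall of these genes in both Trif mutants and Tlr3 knockouts, at -1.90 ± 0.21 in Trif mutants (adjusted p = 5.2e-06) and -1.23 ± 0.21 in Tlr3 knockouts (adjusted p = 0.0003), and Mrps18b differed by -1.28 ± 0.14 in Trif mutants and Mrpl38 by -0.89 ± 0.19 in Tlr3 knockouts. In MyD88 knockouts Mrpl9 differed by 0.71 ± 0.10 and Mrpl22 by 0.64 ± 0.13.

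The gap between the subunit genes and the ribosome genes was read on each array as the difference of their medians, a value that no scaling of a whole array by 1 factor can change. It was -0.16, 0.08, 0.12 and 0.01 on the wild type arrays, 0.52, 0.67, 0.66 and 0.60 on the Trif mutant arrays and 0.52, 0.71, 0.57 and 0.49 on the Tlr3 arrays. All 8 of these mutant arrays lay above all wild type arrays. Tlr4 arrays, at 0.08, 0.08, 0.11 and 0.41, partly overlapped wild type, and MyD88 arrays, at -0.07, -0.21, -0.05 and -0.05, were within or just below its range. As a difference from wild type, the gap between the median differences of both groups was 0.64 in Trif mutants (0.47 to 0.64 over the 5 scalings), 0.58 in Tlr3 knockouts (0.39 to 0.58), 0.16 in Tlr4 knockouts (0.07 to 0.16) and -0.07 in MyD88 knockouts (-0.18 to -0.07). These are descriptions without a test, and unequal change of both groups does not show which of them moved.

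**Figure D4:**
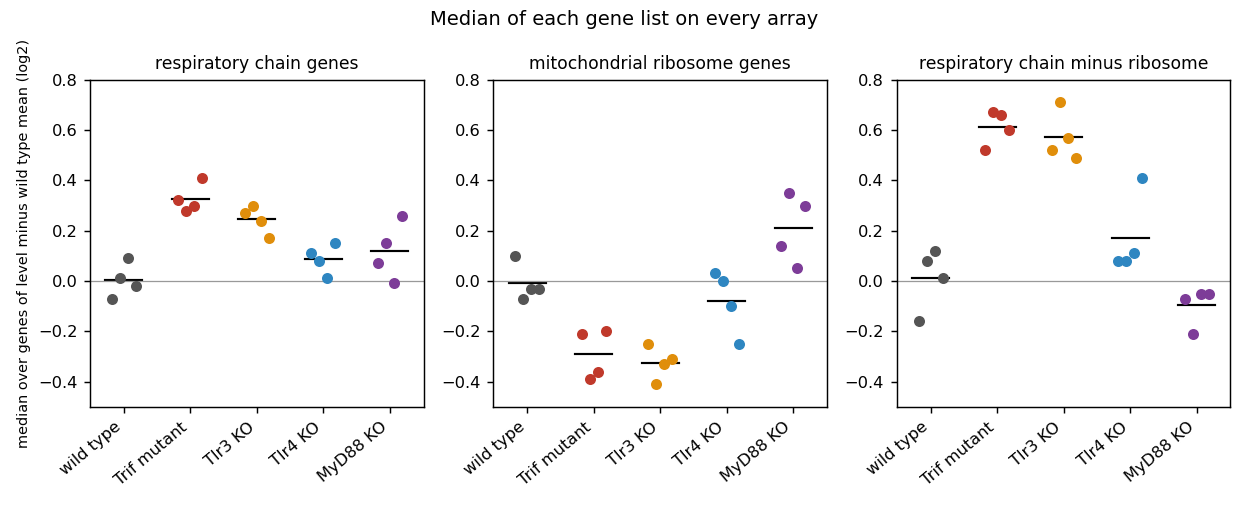
Median on each array of the subunit genes, of the mitochondrial ribosome genes and of their difference (log2, each gene relative to its wild type mean); bars are means of 4 arrays. In Trif mutants and Tlr3 knockouts the difference is 0.49 to 0.71 on every array, against -0.16 to 0.12 in wild type.

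Most called assembly factors and import genes also fell in these 2 mutants. For the list counts from here on, the shares of all features called higher and lower were 28.6% and 15.8% in Trif mutants. In Tlr3 knockouts they were 24.5% and 13.8%, in Tlr4 knockouts 9.31% and 3.11%, and in MyD88 knockouts 37.1% and 12.3%. Of 42 assembly factors, 17 fell and 5 rose in Trif mutants (median -0.17) and 21 fell and 2 rose in Tlr3 knockouts (-0.34). Bcs1l, which inserts the Rieske protein into complex III, differed by -1.41 ± 0.20 and -0.85 ± 0.20, and Cox18, which inserts a mitochondrially made subunit of complex IV, by -1.12 ± 0.21 and -1.07 ± 0.21. Of 24 import genes, 12 fell and 2 rose in Trif mutants and 10 fell and 1 rose in Tlr3 knockouts. Tomm40, the outer membrane channel, differed by -1.60 ± 0.19 and -1.06 ± 0.19, while Timm8a2 rose by 1.49 ± 0.32 in Trif mutants and Timm8a1 differed by -1.02 ± 0.22 in Tlr3 knockouts. In Tlr4 knockouts 2 assembly factors fell, 1 import gene fell, and 1 assembly factor rose, Lyrm7, a chaperone of the Rieske protein (1.62, adjusted p = 1.7e-05). In MyD88 knockouts 6 assembly factors rose, among them Cox15 (1.01 ± 0.22) and Nubpl (0.67 ± 0.11), and 4 fell, and 9 import genes rose, among them Timm8a2 (1.33 ± 0.32) and Tomm5 (0.81 ± 0.19), and 1 fell. Over all features 37.1% were called higher there. The median difference was 0.06 for assembly factors and 0.28 for import genes, against 0.30 for all features. Those MyD88 counts turned with median scaling, to 1 higher and 22 lower for assembly factors and to 0 higher and 15 lower for ribosome genes.

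Of 7 subunits and partners that the name patterns miss, 3 rose in Trif mutants, led by Usmg5 (0.67 ± 0.09) and Atpif1 (0.46 ± 0.10), 4 rose in Tlr3 knockouts, led by Atpif1 (0.52 ± 0.10) and Cycs, which is cytochrome c (0.44 ± 0.12), 0 were called in Tlr4 knockouts, and 1 rose and 2 fell in MyD88 knockouts, where Cycs differed by -0.47 ± 0.12 and Atpif1 by 0.33 ± 0.10. Their median difference in Trif mutants was 0.17, against 0.19 for all features. Of 19 tricarboxylic acid cycle genes, 7 rose and 1 fell in Trif mutants (0 and 7 after quantile normalization, 0 and 2 after normexp), 9 rose and 2 fell in Tlr3 knockouts, 1 rose in Tlr4 knockouts, and 3 rose and 7 fell in MyD88 knockouts. Dlat fell by 0.53 and 0.57 in Trif and Tlr3 mutants (SE 0.13 for each), Sucla2 rose by 0.52 ± 0.11 in Trif mutants, and Ogdh differed by -1.04 ± 0.15 and Pcx by -0.76 ± 0.17 in MyD88 knockouts. Of 17 glycolysis genes, 7 rose and 2 fell in Trif mutants (0 and 5 after quantile normalization, 0 and 2 after normexp), with Hk2 at -1.94 ± 0.22 and Hkdc1 at 0.57 ± 0.13. In Tlr3 knockouts 7 rose, among them Pgk1 (0.57 ± 0.09), in Tlr4 knockouts 1 rose, and in MyD88 knockouts 2 rose, among them Ldhb (1.10 ± 0.26), and 5 fell, among them Pfkp (-1.13 ± 0.37).

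Of 11 ubiquinone synthesis genes, 4 fell and 1 rose in Trif mutants, with Coq5 at -0.78 ± 0.14 and Coq10b at 0.69 ± 0.25. In Tlr3 knockouts 3 fell and 2 rose, with Pdss2 at -0.76 ± 0.21 and Coq10b at 1.14 ± 0.25, in Tlr4 knockouts 1 fell, and in MyD88 knockouts 3 rose and 2 fell, with Coq8a at 1.39 ± 0.28 and Coq10b at -0.73 ± 0.25. Of 15 antioxidant and uncoupling genes, 6 rose and 2 fell in Trif mutants, 5 rose and 2 fell in Tlr3 knockouts, 0 were called in Tlr4 knockouts and 3 fell in MyD88 knockouts. Nnt, the inner membrane transhydrogenase driven by the proton gradient, differed by -1.12, -1.22 and -0.74 in Trif, Tlr3 and MyD88 mutants and by 0.20 in Tlr4 knockouts (SE 0.12 for each). Nnt is known to differ between substrains of C57BL/6 mice, and the labels give no substrain. The part of substrain in any comparison with wild type was not tested. Gpx4 rose by 0.92 ± 0.16 in Trif mutants, Prdx5 by 0.80 ± 0.17 in Tlr3 knockouts, and Ucp2 differed by -0.77 ± 0.16 in MyD88 knockouts. Mitochondrially encoded subunits were not matched by name and are not analysed here.

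Of 19 regulators of mitochondrial biogenesis, 5 rose and 7 fell in Trif mutants, 4 rose and 7 fell in Tlr3 knockouts, 1 fell in Tlr4 knockouts, and 4 rose and 3 fell in MyD88 knockouts. Pprc1, a coactivator of the PGC-1 family, differed by -1.95 ± 0.29 and -1.16 ± 0.29 in Trif and Tlr3 mutants, and Ppara, a nuclear receptor for fatty acids, rose by 1.11 ± 0.21 and 0.62 ± 0.21. In MyD88 knockouts Ppargc1a, which encodes PGC-1 alpha, differed by -1.25 ± 0.19 (adjusted p = 0.00012) and Ppargc1b by -0.87 ± 0.19. In Trif mutants Ppargc1a differed by 0.93 ± 0.19 (adjusted p = 0.00086), and Nrf1, whose motif was searched above, by 0.05 ± 0.12 (adjusted p = 0.79). These last 2 values were chosen after they had been seen.

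**Figure D5:**
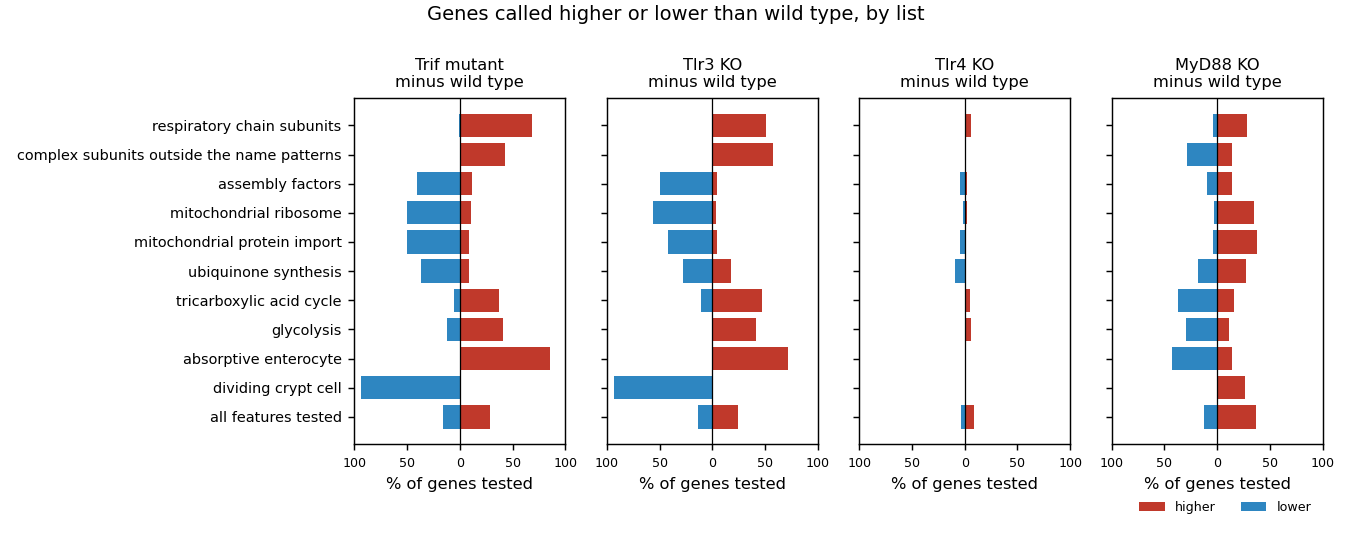
Share of the genes tested in each list that were called higher (red) or lower (blue) than wild type, in percent, for the 4 mutant genotypes, with all features tested in the bottom row. In Trif mutants and Tlr3 knockouts most called subunit genes were higher and most called assembly, ribosome and import genes lower.

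Markers of cell types moved in the same animals. Of 14 absorptive enterocyte markers, 12 rose in Trif mutants (median 0.66) and 10 in Tlr3 knockouts (0.60), 0 were called in Tlr4 knockouts, and 2 rose and 6 fell in MyD88 knockouts (-0.37). After quantile normalization 2 rose in Trif mutants and 2 in Tlr3 knockouts, and after normexp 0 and 3, with medians of 0.17 to 0.57. Of 15 markers of dividing crypt cells, 14 fell in Trif mutants (-2.50) and 14 in Tlr3 knockouts (-1.55), 0 were called in Tlr4 knockouts and 4 rose in MyD88 knockouts. The falls in Trif and Tlr3 mutants numbered 13 or 14 under all 5 scalings. The summed signal of the crypt markers was 111 to 136 times the 75th percentile in wild type, 33.4 to 75.4 in Trif mutants, 53.5 to 81.4 in Tlr3 knockouts, 91.1 to 140 in Tlr4 knockouts and 132 to 213 in MyD88 knockouts, and all 15 were well above background on every array. In bulk RNA, fewer cells of a type and less RNA per cell cannot be told apart. The part of these shifts in the differences of the subunit and ribosome genes was not tested.

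Of 6 Paneth cell markers, 3 fell in Trif mutants, 5 fell in Tlr3 knockouts and 4 rose in MyD88 knockouts, and of 7 tuft cell markers 6 rose in Trif mutants. Of 13 immune cell markers 7 rose in MyD88 knockouts, as did 7 of 7 markers tested of stroma and endothelium and 4 of 10 muscle markers, where 37.1% of all features were called higher. After quantile normalization these counts were 4, 3 and 0, and after normexp 1, 0 and 0. Of the 7 stroma and endothelium markers only 3 were well above background on all 20 arrays, and of the 10 muscle markers only 4. Of the 13 immune markers 11 were. On the MyD88 arrays 70.9% to 85.5% of probes were well above background, so dim markers could pass the filter on dim probes through these arrays. The part of this in the rises of stroma and muscle markers was not tested. Of 8 enteroendocrine markers 3 rose in Trif mutants, 1 rose and 2 fell in Tlr3 knockouts, and 1 rose and 4 fell in Tlr4 knockouts; of 7 goblet cell markers 2 rose and 1 fell in Trif mutants. Of 8 epithelial markers 7 rose in Trif mutants, 6 in Tlr3 knockouts and 4 in MyD88 knockouts, and after quantile normalization 1, 0 and 2. Their part in the results was not tested.

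Other probes of a gene give a measure of what a single probe can carry. Of the 80 genes, 53 had 1 probe and 27 several. The Ndufa1 probes gave 1.05 and 1.07 in Trif mutants and 0.64 and 0.66 in Tlr3 knockouts. The Uqcrh probes gave 0.60 and 0.67 in Trif mutants and 0.44 and 0.50 in Tlr3 knockouts, but -0.10 and 0.31 in Tlr4 knockouts and 0.70 and 0.36 in Trif mutants against Tlr4 knockouts. For Ndufv2, the main probe differed by -0.03, 0.03 and -0.08 in Trif, Tlr3 and Tlr4 mutants and a dimmer one by 0.77, 1.04 and 1.15. For Ndufb2 in MyD88 knockouts these were 0.04 and 1.10, and for Atp5sl, since renamed Dmac2, in Trif mutants 0.13 and 1.04. Which probe follows the gene's RNA was not tested.

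Across the 4 comparisons with wild type, 15 of the 78 genes were called in none, 19 in 1, 29 in 2, 13 in 3 and 2 in all 4. The same was not counted over all features, so these numbers do not set the subunit genes apart. Of all features 28.6%, 24.5%, 9.31% and 37.1% were called higher in Trif, Tlr3, Tlr4 and MyD88 mutants. Called lower were 15.8%, 13.8%, 3.11% and 12.3%. The 2 subunit genes called in all 4 were Atp5o and Uqcrq. The 4 comparisons share their wild type animals, so that a gene's calls in several of them are not independent.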

How the data were processed

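The authors deposited 1 scanner file per array, with spot intensity as extracted by Agilent Feature Extraction 10.7.3.1, per the submitters' processing notes and the file headers. They also deposited a table of signal values, which equalled the processed intensity times 1 factor per array, with a floor of 15, and was used as an alternative. From the processed intensity, control spots and outlier flags were left out, spots of a probe were averaged, and the log2 value minus the array's 75th percentile was taken. Probes had to be well above background on 4 or more of the 20 arrays, which kept 31537 of 41174, and the probe with the highest mean stood for a gene. Gene names are those of the array, updated through RefSeq.

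All 5 genotypes were fitted together with limma 3.58.1 in R 4.3.3 (lmFit, eBayes), without a block, for 7 comparisons, with Benjamini-Hochberg adjustment over 21608 features and a threshold of 0.05. The fit was tested on simulated data. Each array is 1 animal per the labels, and with 4 per genotype their number limits precision. The subunit genes and all lists were chosen with earlier results of these data known. Named genes are, in each comparison and complex, up to 2 called members with the largest difference in each direction, members called against the majority, tissue isoforms with their partners, members called in at least 3 of the 4 comparisons with wild type, and up to 2 called genes of each list with the largest difference. Some genes that this rule names are not reported here.

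Wild type, Trif, Tlr3 and Tlr4 arrays of the same number shared a slide, and each MyD88 array had a slide of its own. On the shared slides wild type always held array position 1, Trif mutants 2, Tlr4 knockouts 3 and Tlr3 knockouts 4. Position can therefore not be told apart from genotype in comparisons of these groups, also within slides. Deviations of same-numbered wild type and Tlr4 arrays correlated at 0.35, 0.21, 0.19 and 0.17, so numbers pair these groups. In the other comparisons not every pair reached 0.1. Correlations of Trif mutants with wild type (0.097 to 0.32) and with Tlr3 knockouts (0.058 to 0.25) were all above 0. The remaining comparisons each held a value below 0. Alternatives were quantile normalization, median scaling, normexp background correction, the deposited table, no filter and a stricter filter on dim probes, the mean of all probes of a gene, moderation with a trend, a fit of the genotypes compared, the replicate block, Xist as a covariate and each animal left out. Centring each array on its median feature was added after seeing the data.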

Additional observations from a re-analysis of the deposited data

Results flagged for a closer look

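Of 130 groups of 4 arrays examined, 8 held an animal far from the other 3, where chance gives about 1 in 20. These were Atp5l at 5.23 in wild type and at 5.69 in Trif mutants, Ndufa13 at 7.83 in Trif mutants, 7.40 in Tlr3 knockouts and 6.98 in MyD88 knockouts, Ndufs8 at 3.00 in Trif mutants, and in MyD88 knockouts Cox7a1 at 6.60 and Ndufb3 at 5.32, all as log2 levels.

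A difference between mutants was called with limma for 27 named results. MyD88 minus Tlr4 knockouts differed by 0.73 for Cox7a2l, 1.40 for Cox8b, 0.43 for Ndufs8, 0.34 for Ndufa8, 0.33 for Atp5s, 0.32 for Uqcrh and 0.22 for Atp5l, and by -0.66 for Sdha, -0.37 for Ndufa11, -0.35 for Ndufa1, -0.35 for Ndufc1, -0.34 for Cox7a2 and -0.32 for Uqcrb. The Cox8b value is a fitted difference and no bound, since on 0 Tlr4 arrays was Cox8b well above background. The gene passed the filter on dim probes through the MyD88 arrays, so its call supports nothing here. Trif mutants minus Tlr3 knockouts differed by 0.51 for Cox7a1, 0.41 for Ndufa1, 0.40 for Ndufb3, -0.30 for Sdhb and -0.69 for Cox6b2. Trif mutants minus Tlr4 knockouts differed by 1.05 for Cox7a1, 0.76 for Ndufa1, 0.70 for Uqcrh, 0.65 for Ndufb3, 0.44 for Cox6c, 0.43 for Uqcrfs1, 0.33 for Atp5l, 0.32 for Atp5h and -0.33 for Ndufa10.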

How the results depend on the processing

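Counts are genes higher and lower, and medians are log2 differences. Against wild type, quantile normalization gave 8 and 4 (median 0.03) for Trif, 11 and 3 (-0.03) for Tlr3, 3 and 2 for Tlr4, and 10 lower for MyD88. Median scaling gave 16 higher (0.20) for Trif, 5 (0.01) for Tlr3, 0 (-0.06) for Tlr4, and 2 and 37 (-0.31) for MyD88. Normexp gave 5 higher (0.11) for Trif, 5 for Tlr3, 0 (0.00) for Tlr4, and 5 and 1 for MyD88. Centring, chosen after seeing the data, gave 1 higher (0.00) for Tlr4, and 2 and 20 (-0.17) for MyD88. For Trif against Tlr3, the lower count was 1 with quantile normalization, 0 with median scaling (median 0.14) and 1 with centring (0.10), and normexp gave 0 and 0 (-0.14). For Trif against Tlr4, quantile normalization gave 10 and 4 (-0.02), median scaling 0 lower, normexp 4 higher (0.07) and centring 51 and 0 (0.29). For MyD88 against Tlr4, median scaling gave 2 and 30 (-0.22), normexp 4 and 1, and centring 2 and 23 (-0.15). Fitting the genotypes compared gave 0 lower for Trif, 1 higher for Tlr4, 13 higher for MyD88, 3 and 0 for Trif against Tlr3, 18 higher for Trif against Tlr4 and 6 higher for MyD88 against Tlr4. Xist as a covariate gave 0 lower for Trif, 3 and 1 for Trif against Tlr3, and 7 and 3 for MyD88 against Tlr4. Between MyD88 and Tlr4 knockouts sex followed genotype, so this adjustment does not settle the part of sex. The deposited table gave 3 higher for Tlr4. No filter gave 2 higher for Tlr4, and 3 and 1 for Trif against Tlr3. The mean of all probes gave 8 higher for Tlr4, 1 lower for MyD88 and 5 lower for Trif against Tlr3. The replicate block gave 2 higher for Tlr4 and, where not every same-numbered pair correlated at 0.1, 1 lower for Trif against Tlr3. The causes were not tested.

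With 1 animal left out, counts and medians ranged from 43 to 55 higher, 0 to 1 lower and 0.28 to 0.36 for Trif, 30 to 40, 0 to 0 and 0.22 to 0.27 for Tlr3, 1 to 4, 0 to 0 and 0.07 to 0.11 for Tlr4, 14 to 27, 2 to 3 and 0.06 to 0.17 for MyD88, 2 to 4, 0 to 2 and 0.01 to 0.05 for Trif against Tlr3, 21 to 30, 1 to 2 and 0.18 to 0.22 for Trif against Tlr4, and 6 to 17, 3 to 9 and -0.01 to 0.10 for MyD88 against Tlr4.

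Among 64 named results, those that reversed were, in MyD88 against Tlr4, Atp5l with median scaling (-0.05) and Cox8b with normexp (-0.30). In MyD88 against wild type they were Atp5g2 (-0.05) and Uqcrq (-0.13) with median scaling, Ndufc1 with the mean of probes (0.06), and Uqcrh with quantile normalization (-0.01), median scaling (-0.19) and centring (-0.05). In Trif against wild type they were Atp5g3 (-0.03) and Sdhd (0.00) with quantile normalization. Over animals left out, 434 calls held and 78 were lost, with 0 reversed. Trend and robust moderation kept all 64.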
